A study of Mus musculus with 5 samples.

Results

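Potassium channel genes are described here across 5 expression arrays of mouse aorta. Members were the probe sets whose single annotated gene symbol begins with Kcn, the root shared by genes of potassium channel subunits, and the rule used no measured value. It gave 90 of the 22690 probe sets of the table, which stand for 62 genes. The arrays compare male mice of the colony BKS.Cg-m +/+ Leprdb/J, aged 16 to 20 weeks and fed regular chow. Homozygous db/db mice carry 2 mutant copies of the leptin receptor gene Lepr and become obese and diabetic, and heterozygous db/+ controls from the same colony carry 1 copy. The m of the strain name is the misty coat-colour allele, which this stock carries on the chromosome opposite db, so that the genotypes can also differ there. RNA from 6 aortas, freed of adventitia and periaortic fat, was pooled for each array. Pools numbered 1, 2 and 3 were db/db and pools numbered 2 and 3 were db/+, so n counts pools (3 and 2) and an array averages over its mice.

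Potassium channels let potassium leave the cell, which holds the membrane potential of vascular smooth muscle negative and keeps voltage-gated calcium channels shut. When potassium channels open, the muscle relaxes, and when they close or are lost it contracts more readily. The pore is built by voltage-gated, calcium-activated, inward rectifier or tandem-pore leak subunits. Auxiliary subunits, such as the beta subunits of the large-conductance calcium-activated (BK) channel, set how readily a pore opens and how much of it reaches the surface.

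Of the 90 Kcn probe sets, 17 had a mean signal above 40 over the 5 arrays, and they represent 15 genes. That is 18.9% of the Kcn probe sets, against 60.4% of all 22626 probe sets that were not controls. The 17 were those of the pore genes Kcna2, Kcnc1, Kcnc4, Kcnh1, Kcnh2, Kcnj3, Kcnj8, Kcnk3, Kcnma1 and Kcnn1, with 1 probe set each, and of the auxiliary genes Kcnab1 and Kcnmb1, with 2 each, and Kcne4, Kcnip4 and Kcnmb2, with 1 each. The same 17 passed the filter of the test, which lay at a signal of 40.6. By class, 5 of 23 probe sets of voltage-gated pores lay above the line, 2 of 9 of calcium-activated pores, 2 of 20 of inward rectifiers and 1 of 12 of tandem-pore leak channels. Among auxiliary subunits it was 2 of 6 for the Kv beta family, 3 of 5 for the BK beta family, 1 of 5 for the KCNE family and 1 of 10 for the KChIP family.

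**Figure D1:**
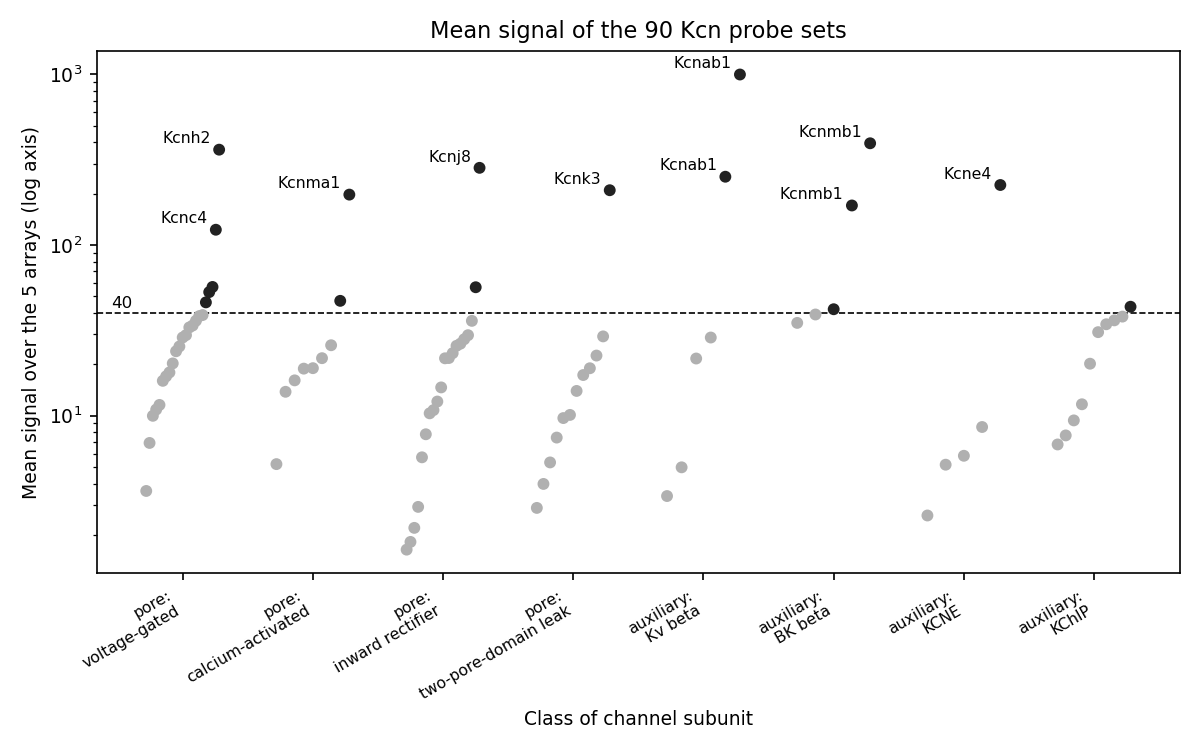
Mean signal over the 5 arrays (log axis) of each of the 90 Kcn probe sets, grouped by class of subunit along the horizontal axis. Black points are the 17 above the dashed line at 40, and grey points are the other 73; a signal depends on the probes as well as on the transcript, so heights of different genes are not transcript levels.

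The other 73 probe sets lay between 1.64 and 39.2, and 22 of the 90 were under 16 on every array. At such signals a probe set gives little information on its transcript, and a low signal does not show that a channel is absent. Well-known vascular channels were among them. Of 25 channel genes listed from vessel wall physiology, 9 lay above the filter, 3 were not analysed here, and 13 lay below it. These 13 were Kcna5, Kcnq1, Kcnq5, Kcnj2, Kcnj11, Kcnj12, Kcnk2, Kcnn2, Kcnn3, Kcnn4, Kcnab2, Kcnmb4 and Kcnip2. Nearest the line from above were Kcnmb2 (42.0), Kcnip4 (43.5), Kcnh1 (46.1) and Kcnn1 (47.1). Nearest from below were the second probe set of Kcnmb2 (39.2), Kcna6 (38.9), Kcna5 (38.3) and Kcnip2 (38.1). Kcna5, a delayed rectifier of arterial muscle, had signals of 15.2, 37.2 and 31.5 in db/db and 49.3 and 58.4 in db/+. Its db/db arrays all lay under its db/+ arrays, and it was not tested at this filter.

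Probe sets of 1 gene often differed in brightness. Of 20 Kcn genes with several probe sets, 8 had at least 1 above the line, and in 6 of those 8 another lay below it. For Kcnma1 the means were 197 and 19.0, and for Kcnk3 they were 209, 17.3 and 10.1. The values of these genes therefore rest on the brighter probe set.

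The 2% trimmed mean was nearly the same on each array, between 150.049 and 150.053, as in signals scaled to a common value. It is therefore no check on how alike the arrays are. The median signal lay between 59.0 and 61.5. Across probe sets tested, Pearson's r of log2 signals ran from 0.951 to 0.976 over pairs of arrays. For db/db replicate 1 against the other arrays it ran from 0.951 to 0.964. Smooth muscle markers were present in every pool, with 10 of 10 above the filter and Acta2 between 6379 and 9147. By mean signal over the arrays, 10 of 10 cardiac markers and 7 of 8 measured brown adipocyte markers were above the filter too. Of other cell types found in the vessel wall, 9 of 10 macrophage and 10 of 10 endothelial markers were. Such a mean need not hold in every pool: Myh6 and Myl3 had 12.6 and 5.1 in db/db replicate 1 and 468.5 and 194.9 in db/db replicate 2. Ucp1 ran from 2136 to 4335, though periaortic fat had been removed. In bulk RNA, fewer cells of a type and less RNA per cell cannot be told apart.

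The comparison asks which potassium channel transcripts differ between diabetic db/db and db/+ aortas. None of the 17 Kcn probe sets passed limma's test at an adjusted p under 0.05, where 13 of all 13574 probe sets tested did (0.0958%), each of them lower in db/db. The smallest adjusted p among the Kcn probe sets was 0.169, for Kcnc4. At an unadjusted p under 0.05, 3 Kcn probe sets were higher in db/db (Kcnmb1, Kcnh2 and 1 of Kcnab1) and 1 was lower (Kcnc4), so 4 of 17 against 8.16% of all probe sets tested (3.97% higher and 4.19% lower). A positive log2 change was found for 14 of the 17 (82.4%), against 52.9% of all probe sets tested. Of the 14, 4 had a db/+ mean of 40 or less and passed the filter through their db/db signals. The median log2 change was 0.31 for the Kcn probe sets and 0.02 for all tested. Without db/+ replicate 2 or 3 the number of all probe sets past the adjusted threshold was 1, and the number of Kcn probe sets higher at an unadjusted p under 0.05 was 1 and 0. With median centring 1 Kcn probe set was higher, and 404 of all 13574. Without db/db replicate 1, 459 of all 13573 probe sets were higher at an unadjusted p under 0.05 and 509 lower. Of the Kcn probe sets, 2 were higher there (Kcnmb1 and Kcnk3) and 2 lower (Kcnc4 and Kcna5, which passed the filter of that fit). These are descriptions of a small list, and no list test was made.

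**Figure D2:**
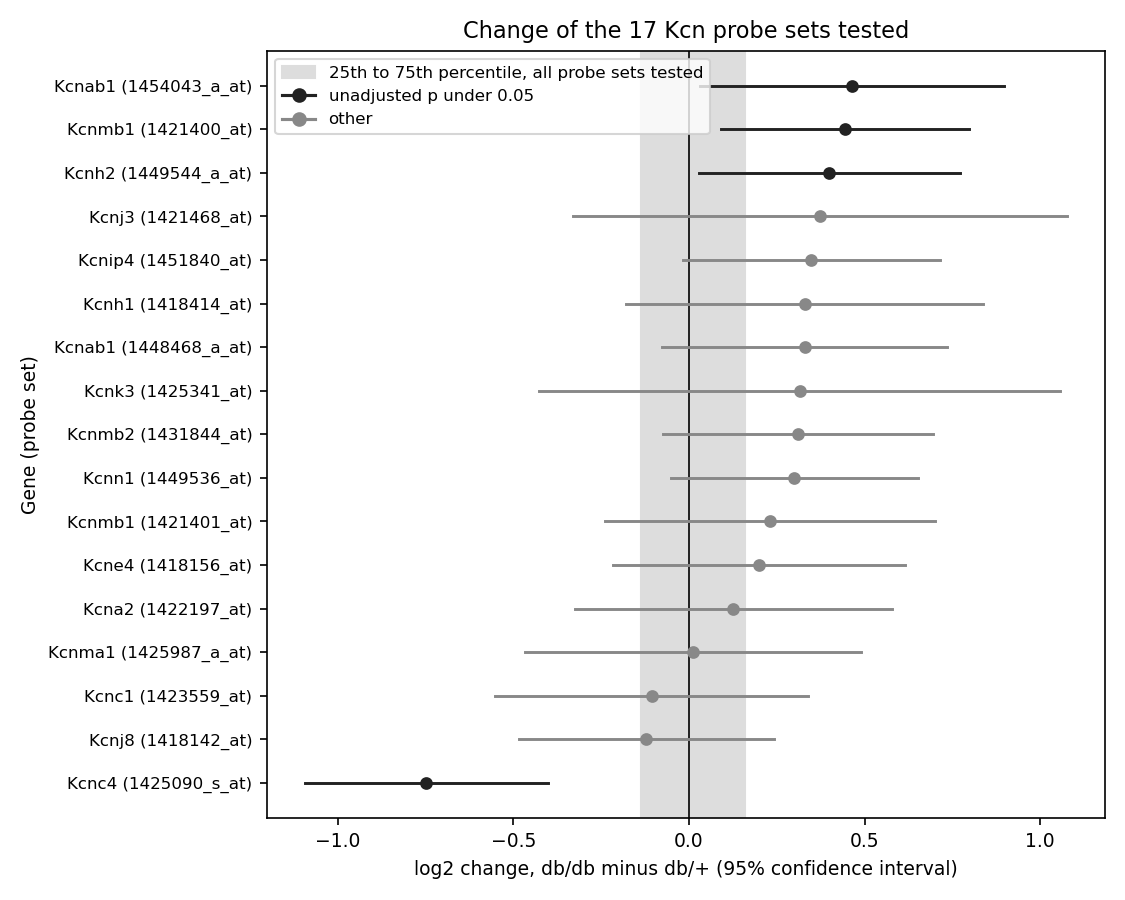
Log2 change (db/db minus db/+, on the log2(signal + 16) scale) with its 95% confidence interval from limma for each of the 17 Kcn probe sets tested. The grey band runs from the 25th to the 75th percentile of all 13574 probe sets tested; Kcnc4 is the lowest at -0.75, a probe set of Kcnab1 the highest at 0.46, and the 4 black intervals do not reach 0.

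The arrays of the genotypes did not overlap for 8 of the 17 probe sets, against 25% of all tested. In 7 of these the 3 db/db pools were above both db/+ pools (13% of all tested) and in 1, Kcnc4, they were below (12% of all tested). The 7 were both probe sets of Kcnab1 and those of Kcnmb1, Kcnh2, Kcnip4, Kcnn1 and Kcnmb2. Low signals were part of this count and of the share and median of positive changes. Of the 17, 4 (Kcnn1, Kcnh1, Kcnip4 and Kcnmb2) had a db/+ mean under 40 and reached the line through their db/db signals. All 4 had a positive change, while Kcna5, lower in db/db with a db/+ mean of 53.85, lay under the line. With the filter raised to the 60th percentile, a signal of 90.9, 10 Kcn probe sets were left, with a median log2 change of 0.27. Of these, 8 had a positive change and 4 had db/db above db/+ without overlap, against 51.0% and 12.3% of all probe sets at that filter. With no filter, 57 of the 90 had a positive change, against 53.5% of all, and the median Kcn change was 0.06. The part of the filter in these values was not tested.

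**Figure D3:**
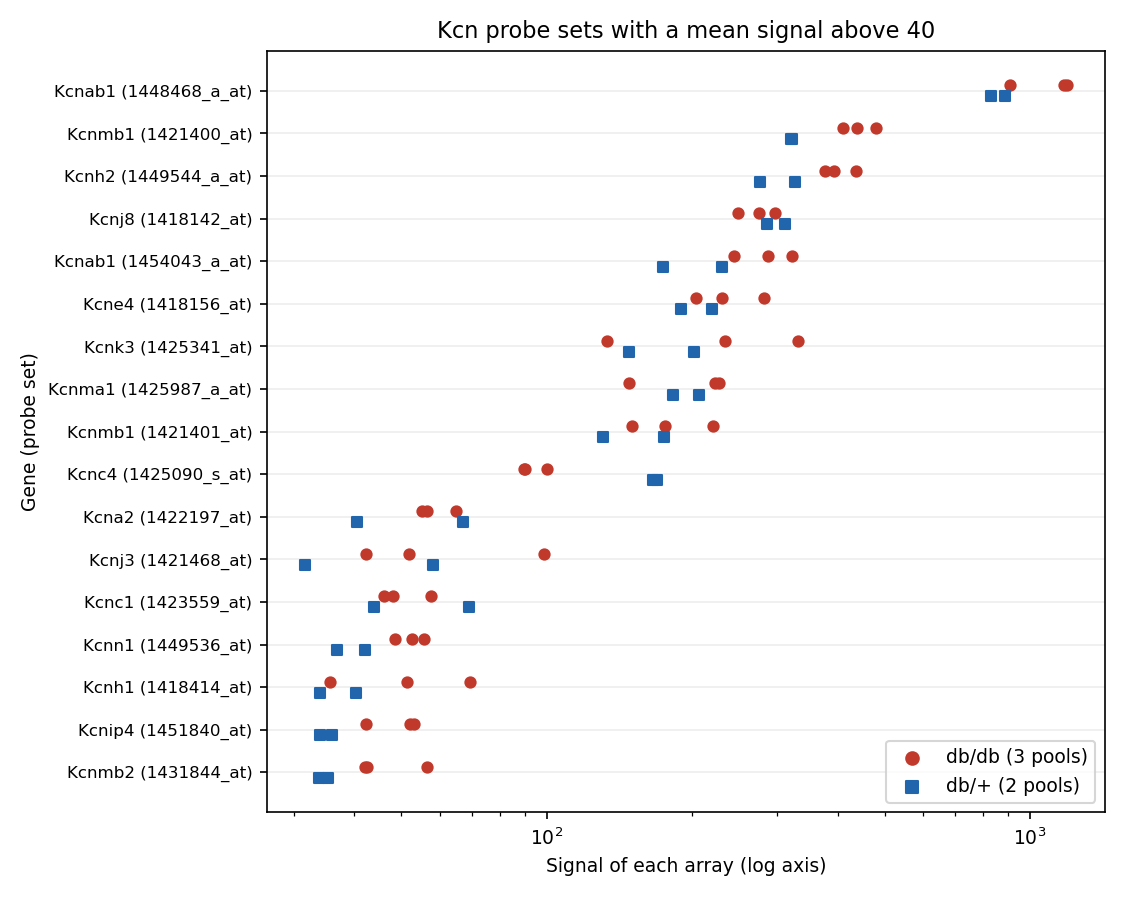
Signal on each array (log axis) of the 17 Kcn probe sets with a mean above 40, ordered by mean. Red circles are the 3 db/db pools and blue squares the 2 db/+ pools; the db/db circles of Kcnc4 lie to the left of both squares, while those of Kcnmb1 (1421400_at), Kcnh2 and both Kcnab1 probe sets lie to the right of theirs.

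Kcnc4 encodes a voltage-gated pore of the Shaw type, which opens on strong depolarisation and closes fast. Its probe set 1425090_s_at had signals of 100, 90.1 and 89.7 in db/db and of 165.5 and 169.1 in db/+. The pools of each genotype lay close together, and the groups were well apart. The means were 93.3 ± 5.83 (SD, n = 3) and 167.3 ± 2.55 (SD, n = 2), a log2 change of -0.75 (SE 0.15, 95% interval -1.09 to -0.40, unadjusted p = 0.00097, limma adjusted p = 0.169). By unadjusted p it stood at place 77 among the 13574 probe sets tested. The difference therefore exceeded the spread between pools, but did not pass after adjustment over all probe sets. The second Kcnc4 probe set, 1425089_at, lay under the filter with 11.3, 13.6 and 5.5 in db/db and 31.7 and 27.5 in db/+, so its db/db pools were again the lower ones. Among the settings tried, the adjusted p of Kcnc4 was lowest with array weights, at 0.103. Without db/+ replicate 2 or 3, which leaves 1 control array, it was 0.705 and 0.890.

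Macrophage markers had lower signals in db/db, and skeletal muscle markers went both ways. Against 4.19% of all probe sets tested, 8 of the 9 macrophage markers tested were lower at an unadjusted p under 0.05, and 0 after adjustment. Their summed signal over the 10 measured markers ran from 2285 to 2840 in db/db and from 3917 to 5046 in db/+, with none at 0. Skeletal muscle, where Kcnc4 is known to be expressed, left a summed marker signal between 676 and 1030 in db/db and of 1403 and 643 in db/+, so the groups overlapped. Of its 10 markers 5 lay above the filter, and Myh4 was under 16 on every array. Casq1, the brightest, had 520, 515.9 and 414.8 in db/db and 300.2 in each db/+ pool (log2 change 0.65, unadjusted p = 0.0041, limma adjusted p = 0.299), while the other 4 had negative values, among them Tnnc2 (-0.98, unadjusted p = 0.046) and Acta1 (-0.92). The part of these tissues in the value of Kcnc4 was not tested.

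The other voltage-gated pore with an unadjusted p under 0.05 was Kcnh2, the ether-a-go-go related channel known for the rapid delayed rectifier current of the heart. Its signals were 436.9, 393.5 and 376.4 in db/db and 326.7 and 276.4 in db/+. Each db/db pool was above each db/+ pool. The means were 402 ± 31.2 (SD, n = 3) and 302 ± 35.6 (SD, n = 2), with a log2 change of 0.40 (SE 0.16, unadjusted p = 0.038, limma adjusted p = 0.578). The summed signal of cardiac markers was 712, 4160 and 909 in db/db replicates 1, 2 and 3 and 1688 and 1273 in db/+ replicates 2 and 3. That of smooth muscle markers was 38251, 34765 and 30200 in db/db, the order of Kcnh2 in those pools, and 28442 and 32018 in db/+. There the order was opposite, with Kcnh2 higher in replicate 2 and the smooth muscle sum higher in replicate 3. The part of either tissue in the value of Kcnh2 was not tested.

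The sequences of the 250 bases before the transcription start are shown for these pores with the smallest p in each direction, because their signals differed in opposite directions. They come from RefSeq on GRCm38.p6, both from the minus strand, Kcnc4 at chr3:107458899-107459148 and Kcnh2 at chr5:24329592-24329841, and capitals mark GGGCGG or its reverse complement, the core of the GC box.
Kcnc4: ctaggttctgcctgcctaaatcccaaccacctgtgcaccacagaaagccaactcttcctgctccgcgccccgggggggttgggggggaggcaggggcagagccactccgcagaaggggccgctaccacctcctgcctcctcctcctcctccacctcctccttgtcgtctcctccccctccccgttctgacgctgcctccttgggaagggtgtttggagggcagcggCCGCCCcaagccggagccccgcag
Kcnh2: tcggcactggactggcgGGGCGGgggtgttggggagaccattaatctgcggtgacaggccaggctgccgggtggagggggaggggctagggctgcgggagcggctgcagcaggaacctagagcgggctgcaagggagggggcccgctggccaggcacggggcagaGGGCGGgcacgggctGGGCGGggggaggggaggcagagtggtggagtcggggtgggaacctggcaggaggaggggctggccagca
Both windows were rich in G and C (68.0% and 73.6%), with GGGCGG on either strand at 1 position before Kcnc4 and at 3 before Kcnh2. The motif was found in 32.7% of all 32851 windows of this length and in 31 of the 68 windows of the 50 Kcn genes in the table (45.6%).

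The remaining voltage-gated pores had intervals that included 0. Kcnh1, a relative of Kcnh2, had 69.4, 51.3 and 35.6 in db/db and 34.0 and 40.3 in db/+. Its lowest db/db pool lay between the db/+ pools (log2 change 0.33, SE 0.22). Kcna2, a Shaker-type delayed rectifier, had 55.1, 56.4 and 65.0 against 40.4 and 67.0, so that the db/db pools lay inside the db/+ range (0.13, SE 0.20). Without db/+ replicate 2 the value of Kcna2 was -0.15. Kcnc1, a Shaw-type pore like Kcnc4 that falls outside the rule for named genes and was added after its values were seen, had 48.0, 46.1 and 57.7 against 43.9 and 69.2. Its log2 change was -0.11 (SE 0.19, 95% interval -0.55 to 0.34), and the difference between Kcnc1 and Kcnc4 was not tested.

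The BK channel couples local calcium release to membrane potential in arterial muscle. Its pore is encoded by Kcnma1, and the smooth muscle beta subunit that raises its calcium sensitivity by Kcnmb1. Kcnma1 (1425987_a_at) had 227.6, 147.7 and 222.6 in db/db and 206.3 and 182.8 in db/+. Both the highest and the lowest signal came from db/db, and the means were nearly the same, 199 ± 44.8 (SD, n = 3) and 195 ± 16.6 (SD, n = 2). The log2 change was 0.01 (SE 0.21), and its 95% interval of -0.47 to 0.49 leaves room for a change of moderate size either way. With 5 alternatives the sign of this value turned, to between -0.09 and -0.03.

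Kcnmb1 (1421400_at) had 480.6, 411.0 and 439.2 in db/db and 320.6 and 321.6 in db/+. The control pools were nearly equal, and all db/db pools lay above them. Means were 444 ± 35.0 (SD, n = 3) and 321 ± 0.71 (SD, n = 2), with a log2 change of 0.44 (SE 0.15, 95% interval 0.09 to 0.80, unadjusted p = 0.020, limma adjusted p = 0.478). The value lay between 0.39 and 0.50 over the alternatives that can move a log2 change, which the filters and trended robust eBayes cannot. The second probe set, 1421401_at, had 221.2, 175.5 and 150.3 against 174.8 and 130.6. There the groups overlapped, and the log2 change was 0.23 (SE 0.20), with a range from 0.04 without db/+ replicate 3 to 0.42 without db/+ replicate 2. Whether Kcnmb1 and Kcnma1 changed unequally was not tested.

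The smooth muscle list had mostly positive values, none past the test. Of its 10 markers, 9 had a positive log2 change (Myocd had -0.10), against 52.9% of all probe sets tested. Of the 10 markers, 0 passed at an unadjusted or adjusted p under 0.05, and their median was 0.19. Their summed signal was between 30200 and 38251 in db/db and between 28442 and 32018 in db/+, with none of the 10 at 0. The groups' sums overlapped, and in db/db they were highest in replicate 1 and lowest in replicate 3. The part of smooth muscle content in the values of Kcnmb1, Kcnab1 and Kcnh2 was not tested.

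Promoter windows of the BK pair are shown because pore and beta subunit serve 1 channel while their signals gave different values. Kcnmb1 is read from the plus strand at chr11:33962763-33963012 and Kcnma1 from the minus strand at chr14:24004206-24004455, on GRCm38.p6 from RefSeq, with the same use of capitals.
Kcnmb1: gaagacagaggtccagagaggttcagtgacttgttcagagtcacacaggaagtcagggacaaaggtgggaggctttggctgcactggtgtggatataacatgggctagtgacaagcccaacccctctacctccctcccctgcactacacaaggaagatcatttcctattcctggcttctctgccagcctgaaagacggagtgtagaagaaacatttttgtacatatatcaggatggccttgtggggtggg
Kcnma1: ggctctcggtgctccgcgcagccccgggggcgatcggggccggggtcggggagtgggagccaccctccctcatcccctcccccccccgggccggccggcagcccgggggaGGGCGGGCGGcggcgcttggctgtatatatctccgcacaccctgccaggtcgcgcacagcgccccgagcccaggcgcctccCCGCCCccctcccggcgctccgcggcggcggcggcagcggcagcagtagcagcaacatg
The Kcnmb1 window had 50.8% G and C and no GGGCGG. The Kcnma1 window had 79.2% G and C and GGGCGG at 3 positions, of which a pair overlapped. A CArG box, the motif of serum response factor at muscle promoters, was searched on both strands and was present in 1.47% of all windows and in 0 of the 68 Kcn windows. TATAAA was found in 1 of the 68 Kcn windows (1.47%), against 12.4% of all windows. These windows are short, and a motif may lie outside them.

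The other BK beta gene above the line was Kcnmb2, whose product can inactivate the channel. Its probe set 1431844_at had 42.4, 56.6 and 42.1 in db/db and 35.3 and 33.8 in db/+. All db/db pools were higher, but the db/+ signals lay under 40 (log2 change 0.31, SE 0.17, limma adjusted p = 0.700). The small-conductance calcium-activated channel Kcnn1 (1449536_at) had 55.6, 48.5 and 52.5 against 36.8 and 42.0. Its groups did not overlap either (0.30, SE 0.15, adjusted p = 0.675), while its second probe set had a mean of 21.7. The small- and intermediate-conductance channels of arterial endothelium, Kcnn3 and Kcnn4, had mean signals of 5.20 for Kcnn3 and of 13.8 and 25.9 for Kcnn4. They were not tested at this filter. With no filter, Kcnn4 probe set 1421038_a_at had a log2 change of -0.58 (unadjusted p = 0.031, limma adjusted p = 0.655). On the brighter Kcnn4 probe set the groups overlapped. Endothelial markers were lower in db/db for 9 of 10 genes by sign, against 47.1% of all probe sets tested. At an unadjusted p under 0.05 it was 5 of 10, against 4.19% of all, and 0 after adjustment. The summed signal of the endothelial markers ran from 1486 to 1977 in db/db and from 2317 to 2444 in db/+.

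Kcnab1 encodes a cytosolic beta subunit of Shaker-type channels that speeds their inactivation. Probe set 1448468_a_at had 1190, 907.1 and 1175 in db/db and 831.7 and 886.3 in db/+. Probe set 1454043_a_at had 287.0, 243.7 and 321.4 against 230.6 and 173.7. On both probe sets the db/db pools lay above the db/+ pools, by a small margin for db/db replicate 2. The log2 changes were 0.33 (SE 0.18, unadjusted p = 0.099, limma adjusted p = 0.698) and 0.46 (SE 0.19, unadjusted p = 0.039, limma adjusted p = 0.581). Both stayed positive over the alternatives that can move a log2 change. They lay between 0.26 and 0.45 for the first and between 0.27 and 0.65 for the second. The probe sets of Kcnab2 and Kcnab3, the other genes of this family, had means from 3.38 to 28.7.

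Kcne4, a single-pass subunit that dampens several voltage-gated channels, had 281.0, 203.5 and 230.5 in db/db and 189.5 and 219.2 in db/+. The groups overlapped, with a log2 change of 0.20 (SE 0.18). The other 4 KCNE probe sets had means from 2.60 to 8.58. Kcnip4, a calcium-binding partner of the transient outward channels, had 52.1, 42.2 and 53.1 against 34.0 and 36.0. Its db/db pools were all higher, with db/+ under 40 (0.35, SE 0.16, limma adjusted p = 0.638). Its second probe set had a mean of 34.3, and the other KChIP genes, Kcnip1, Kcnip2 and Kcnip3, had means from 6.78 to 38.1.

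Among inward rectifiers, Kcnj8 forms the pore of the ATP-sensitive channel of vascular muscle, which opens when cell energy falls. It had 296.3, 249.2 and 274.5 in db/db and 311.7 and 285.0 in db/+. The pools overlapped, with means of 273 ± 23.6 (SD, n = 3) and 298 ± 18.9 (SD, n = 2). The log2 change was -0.12 (SE 0.16, 95% interval -0.48 to 0.24, limma adjusted p = 0.900). Over the alternatives that can move it, the value lay between -0.18 and -0.06. Abcc9, the sulfonylurea receptor that completes this channel and lies next to Kcnj8 on chromosome 6 in the RefSeq table, had 326.7, 235.2 and 408.7 against 356.1 and 298.4, with a log2 change of -0.04 (SE 0.23). The pancreatic-type pair of the same channel, Kcnj11 and Abcc8, had means of 21.8 and 26.8 and was not tested at this filter.

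Kcnj3, a G protein-gated rectifier known from atrial muscle and nerve, had 98.9, 51.9 and 42.3 in db/db and 58.1 and 31.6 in db/+. The signal of db/db replicate 1 stood far above the other 4. The log2 change was 0.37 (SE 0.31, 95% interval -0.33 to 1.08), and it ranged from 0.05 to 0.69 over the 14 alternatives that gave a value. That array had the lowest summed signal of cardiac markers, 712. It had the highest sum of the 9 measured lymphocyte markers, 1023, against 547 and 519 in the other db/db pools and 482 and 449 in db/+. Zap70 alone gave 440.2 of the 1023, and 5 of the 9 markers lay above the filter. The part of such cells in the signal of Kcnj3 was not tested. Of the other inward rectifiers, 18 probe sets lay between 1.64 and 35.9.

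Kcnk3 encodes an acid-sensitive leak channel that sets resting potential in vascular muscle, and it is also known from heart and brown fat. Its probe set 1425341_at had 133.0, 331.3 and 233.8 in db/db and 201.4 and 147.7 in db/+. Both extremes came from db/db pools, and the SD in db/db was 99.2 around a mean of 233. The log2 change was 0.32 (SE 0.32, 95% interval -0.43 to 1.06, limma adjusted p = 0.871). It was 0.03 without db/db replicate 2 and 0.64 with the replicate number as a block, so that single pools decided its size. The unadjusted p was 0.0067 with the block and 0.023 without db/db replicate 1, and the limma adjusted p under these settings was 0.348 and 0.564. The other Kcnk3 probe sets lay under the filter. Probe set 1425342_a_at had 23.5, 14.4 and 30.2 in db/db and 6.6 and 11.8 in db/+. There the groups did not overlap, and db/db replicate 2 was the lowest db/db pool. Probe set 1426058_a_at had 9.4, 13.8 and 10.8 against 3.6 and 12.9.

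Brown adipocyte markers and white or general adipocyte markers followed a like order among the db/db pools. The summed signal of the brown list was 5798, 11270 and 10072 in db/db replicates 1, 2 and 3 and 7268 and 8372 in db/+ replicates 2 and 3. That of the white or general list was 7178, 12034 and 9574 in db/db and 11671 and 11140 in db/+. Cardiac markers were likewise highest in db/db replicate 2 and lowest in db/db replicate 1. Of the brown fat list 7 of 8 measured genes lay above the filter, with Zic1 between 11.5 and 15.1, and 0 passed after adjustment. Of the white or general list all 8 measured lay above it, and 1 passed after adjustment, Lep, lower in db/db. In db/+, Kcnk3 probe set 1425341_at and the white or general adipocyte sum were higher in replicate 2. The brown adipocyte sum was higher in replicate 3. The part of fat or heart tissue in the signal of Kcnk3 was not tested.

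**Figure D4:**
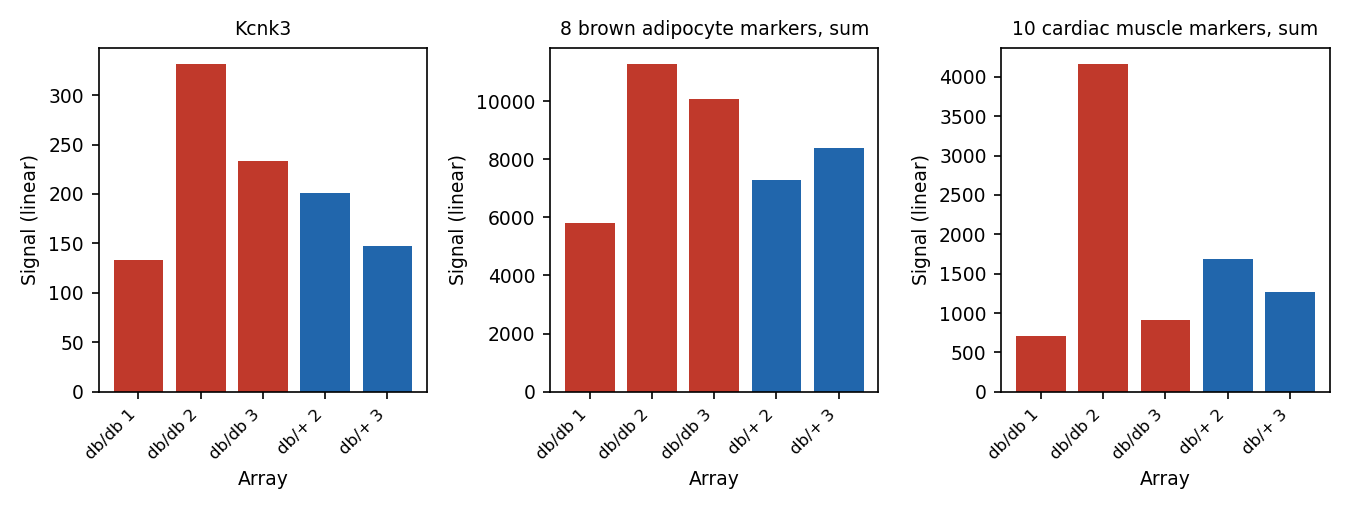
Signal of Kcnk3 probe set 1425341_at (left), summed signal of the 8 measured brown adipocyte markers (middle) and of the 10 cardiac muscle markers (right) on each array, on linear axes from 0. Red bars are db/db and blue bars db/+; in all 3 panels db/db replicate 2 is the highest array and db/db replicate 1 the lowest.

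Values by array showed how far single pools carried the list. For 9 of the 17 Kcn probe sets the highest signal was that of db/db replicate 1. Relative to the db/+ mean, the median log2 difference over the 17 was 0.42 in db/db replicate 1, 0.19 in replicate 2 and 0.20 in replicate 3. Without db/db replicate 1, Kcnh1 fell under the filter and Kcna5 passed it, so the 17 tested there were not the same 17. Of these, 12 had a positive change (51.8% of all probe sets), 8 were higher without overlap (18.3% of all), and the median was 0.16. The replicate block, with the same log2 changes on the original 17, had 13 positive. The summed marker signals in which db/db replicate 1 was the highest array were those of smooth muscle, at 38251, and lymphocytes, at 1023.

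**Figure D5:**
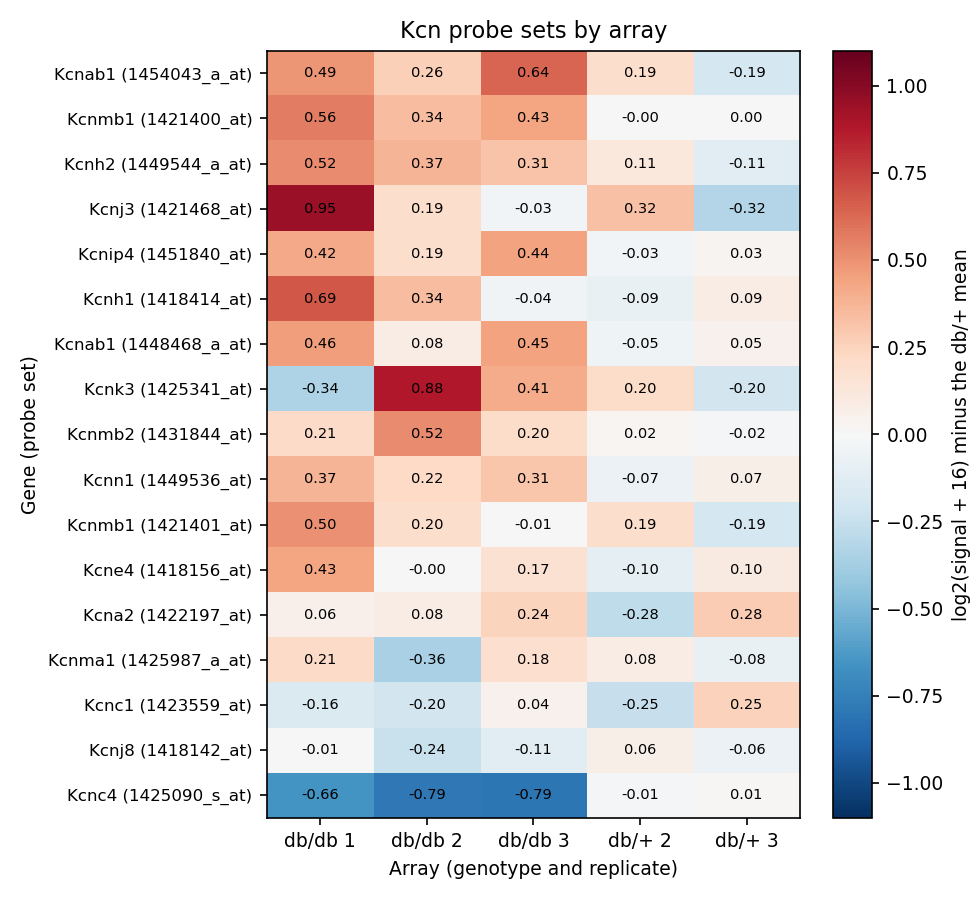
Difference of each array from the mean of the 2 db/+ arrays, in log2(signal + 16), for the 17 Kcn probe sets, ordered by their change between genotypes. Red is higher and blue lower; Kcnc4 is between -0.79 and -0.66 in the 3 db/db pools, Kcnj3 reaches 0.95 in db/db replicate 1 and Kcnk3 0.88 in db/db replicate 2.

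Other genes of potassium handling and of the calcium entry that potassium channels oppose were taken from lists, with the brightest probe set for each gene. Of 15 partner proteins of potassium channels, 9 were measured and 4 lay above the filter (Abcc9, Amigo1, Dlg1 and Dlg4). None passed at an unadjusted or adjusted p under 0.05, and their median log2 change was 0.05. Of 15 genes of potassium pumps and cotransporters, 11 were measured and 9 tested, and 0 passed after adjustment. At an unadjusted p under 0.05, where 4.19% of all probe sets tested were lower in db/db, 2 of the 9 were lower. These were Atp1b1, a beta subunit of the sodium-potassium pump (log2 change -0.46, SE 0.16), and the pump modulator Fxyd6 (-0.60, SE 0.20). Of 18 calcium channel genes, 15 were measured and 9 tested, with 0 past the adjusted threshold. At an unadjusted p under 0.05, where 3.97% of all probe sets tested were higher in db/db, 2 of the 9 were higher. These were Cacna1d, an L-type pore (0.74, SE 0.19, limma adjusted p = 0.307), and the calcium release channel Itpr2 (0.37, SE 0.16). Cacna1c, the main L-type pore of arterial muscle, had 64, 58.9 and 62.6 in db/db against 61.2 and 51.0 (log2 change 0.11, SE 0.16).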

How the data were processed

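Affymetrix arrays of pooled mouse aorta were used as deposited: linear signal intensities per probe set, which the authors made with MAS5 (version not given), per the submitters' processing notes. Array type, build and detection calls were not used or not given in the sources used here. After leaving out 64 control probe sets, 22626 remained; the platform annotation gave 1 symbol for 20380, several for 691 and none for 1555. All 62 Kcn symbols matched the RefSeq table of GRCm38.p6 by Entrez identifier.

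Values were transformed to log2(signal + 16), so log2 changes understate those of low signals. Probe sets with a mean above the 40th percentile (signal 40.6) were tested, 13574 in all, by limma 3.58.1 under R 4.3.3, using lmFit, eBayes and genotype as the sole term. Two-sided p-values were adjusted by Benjamini-Hochberg over all of them, with a threshold of 0.05. There were 3 residual degrees of freedom, and the prior added 5.39. The number of arrays limits precision. The test was tried on simulated data.

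Members and lists were chosen with earlier results of these data known. Named were the 12 Kcn genes with the smallest p, the 6 brightest, and 25 channel genes of vessel wall physiology where kept. Tables and plots were made with pandas 2.3.3 and matplotlib 3.10.9 in Python 3.11.15. Alternatives were a replicate block, each array left out, array weights, trended robust eBayes, other filters, pseudocounts of 1 and 64, median centring and quantile normalization. The filters and trended robust eBayes change p-values but no log2 change. Leaving out an array also moves the filter, so the Kcn probe sets tested can differ.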

Additional observations from a re-analysis of the deposited data

How the results depend on the processing

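The count of Kcn probe sets past the adjusted threshold was 0 under every alternative run, including a threshold of 0.1. The count over all probe sets, 13, was 3 with a pseudocount of 1, 37 with a pseudocount of 64, 1 with no filter, 35 with a filter at the 60th percentile, 21 with median centring, 41 with trend and robust, 48 with array weights and 49 at an adjusted p under 0.1. Leaving out single arrays gave from 1 (either db/+ array) to 13. Kcn probe sets higher at an unadjusted p under 0.05, 3 (539 of all 13574), were 5 with a pseudocount of 1 (566 of all 13574). They were 6 of 90 with no filter (790 of all 22626) and 1 with median centring (404 of all 13574). With single db/db arrays left out they ran from 2 without replicate 1 (459 of all 13573) to 4 without replicate 2 (687 of all 13572). The lower count, 1 (569 of all 13574), was 6 of 90 with no filter (799 of all 22626). It ran from 1 to 2 with single db/db arrays left out, with 2 without replicate 1 (509 of all 13573). The median Kcn log2 change, 0.31, was 0.18 with a pseudocount of 64 and 0.058 with no filter, and from 0.16 to 0.31 with single arrays left out.

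With the replicate number as a block, all probe sets past the threshold were 22, and the median Kcn change was 0.16. Kcn probe sets higher at an unadjusted p under 0.05 were 1 (543 of all 13574). That 1 was Kcnk3 (unadjusted p = 0.0067), while Kcnmb1, Kcnh2 and Kcnab1 had 0.059, 0.091 and 0.077. The labels do not say what same-numbered pools share beyond the number. Deviations of such pools from the group means correlated with r = 0.11 for replicate 2 and 0.00051 for replicate 3. The deviations of the 2 db/+ arrays from their own mean are equal and opposite. These 2 values are therefore not independent and cannot exclude a shared batch. Pool db/db replicate 1 has no partner. The block therefore takes db/db replicate 1 out of the genotype term. Its log2 changes equal those of the fit without that array, so its shifts cannot be credited to pairing. Chosen after seeing the data, counts of positive changes were 57 of 90 with no filter and 8 of 10 at the 60th percentile, where 4 did not overlap and were higher. Of 16 named probe sets, 14 kept their direction in every alternative that gave a value. The filters and trended robust eBayes cannot turn a direction, so they add nothing to this count. Kcnma1 turned to -0.026 with median centring and -0.089 with the block, and ran from -0.089 to 0.20 with single arrays left out, below 0 without db/db replicate 1 or 3 or db/+ replicate 3. Kcna2 ran from -0.15 (without db/+ replicate 2) to 0.41. The cause was not tested. Fits without a db/+ array leave 1 control, which is assumed to vary like the other group. Signals under 40 limit 73 of the 90 members.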
